A study of Mus musculus with 12 samples.

Results

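The genes described here are 9 large ubiquitin ligases measured in mouse bone marrow-derived macrophages: Mib1, Herc1, Herc2, Herc3, Herc4, Herc6, Huwe1, Nedd4 and Itch. They were taken by name from the row names of 12 count tables, alone or as a part of a joined name, out of 19549 features. All 9 were found, and 9 of 9 passed the filter on low counts that left 10421 features for testing. Herc1 has no row of its own and appears only in a row joined with Fbxl22, a gene that overlaps it, so reads of these genes could not be separated and the row is called Herc1 below. The members were chosen from their values in polysome-associated mRNA against total mRNA, so those differences are given as a description, and nothing is concluded from their p-values.

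The cells were grown from marrow of naïve female FVB mice and treated for 4 h with IFNG (interferon gamma, 200 units/mL) or IL4 (interleukin 4, 40 ng/mL). Total mRNA came from about 10% of each cell preparation. Polysome-associated mRNA came from the rest, as messages that sedimented with more than 3 ribosomes in a 5% to 50% sucrose gradient. The 4 groups, IFNG polysome, IFNG total, IL4 polysome and IL4 total, held 3 libraries each. There were no untreated cells among the samples used here, so each polarization is set against the other. Nothing in the labels tells whether the replicates are separate mice or cultures. The p-values thus cover only the variation among these libraries, which could be technical.

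Ubiquitin ligases (E3 enzymes) choose the proteins to which ubiquitin is attached, after an E1 enzyme has activated it and an E2 enzyme has carried it. HECT ligases first take ubiquitin onto a cysteine of their own HECT domain and then pass it to the substrate, whereas RING ligases such as Mib1 (mind bomb 1) bring a charged E2 enzyme to the substrate. HERC proteins join a HECT domain to RCC1-like domains. They fall into large members, Herc1 and Herc2, and small ones, Herc3, Herc4 and Herc6. In macrophages, ubiquitin and the ubiquitin-like protein ISG15, which interferons induce, mark signalling proteins and antiviral targets, and IFNG and IL4 drive classical and alternative activation.

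Total counts were 2563955 to 8789480 in the 6 polysome libraries and 10443200 to 22014162 in the 6 total mRNA libraries. Levels are CPM (each count scaled to a common library size, as edgeR's cpm gives it) with TMM scaling, and 3 counts were worth 0.184 to 1.135 CPM. CPM is not divided by gene length, so levels are compared within a gene only. A single gene, Lars2 (a mitochondrial leucyl-tRNA synthetase), took 1.78% to 29.3% of the counts of the polysome libraries, against 0.341% to 2.00% in total mRNA. All 8 macrophage markers listed were tested, and their summed level was 7538 to 24290 CPM over the 12 libraries.

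The members differed in their place between polysome-associated and total mRNA. Mib1, Herc1, Herc2 and Huwe1 stood several fold higher in polysome-associated mRNA in both polarizations, with log2 fold changes of 2.19 to 2.69 with IFNG and 1.82 to 2.65 with IL4. Herc3 was higher by less, at 1.39 and 1.05, and in Herc4, Herc6, Nedd4 and Itch the polysome and total libraries overlapped. The 9 members together made up 0.0525% to 0.0801% of all counts in IFNG polysome libraries, against 0.00839% to 0.0161% in IFNG total. With IL4 they took 0.0434% to 0.0960% in polysome libraries, against 0.0119% to 0.0188% in total mRNA.

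**Figure D1:**
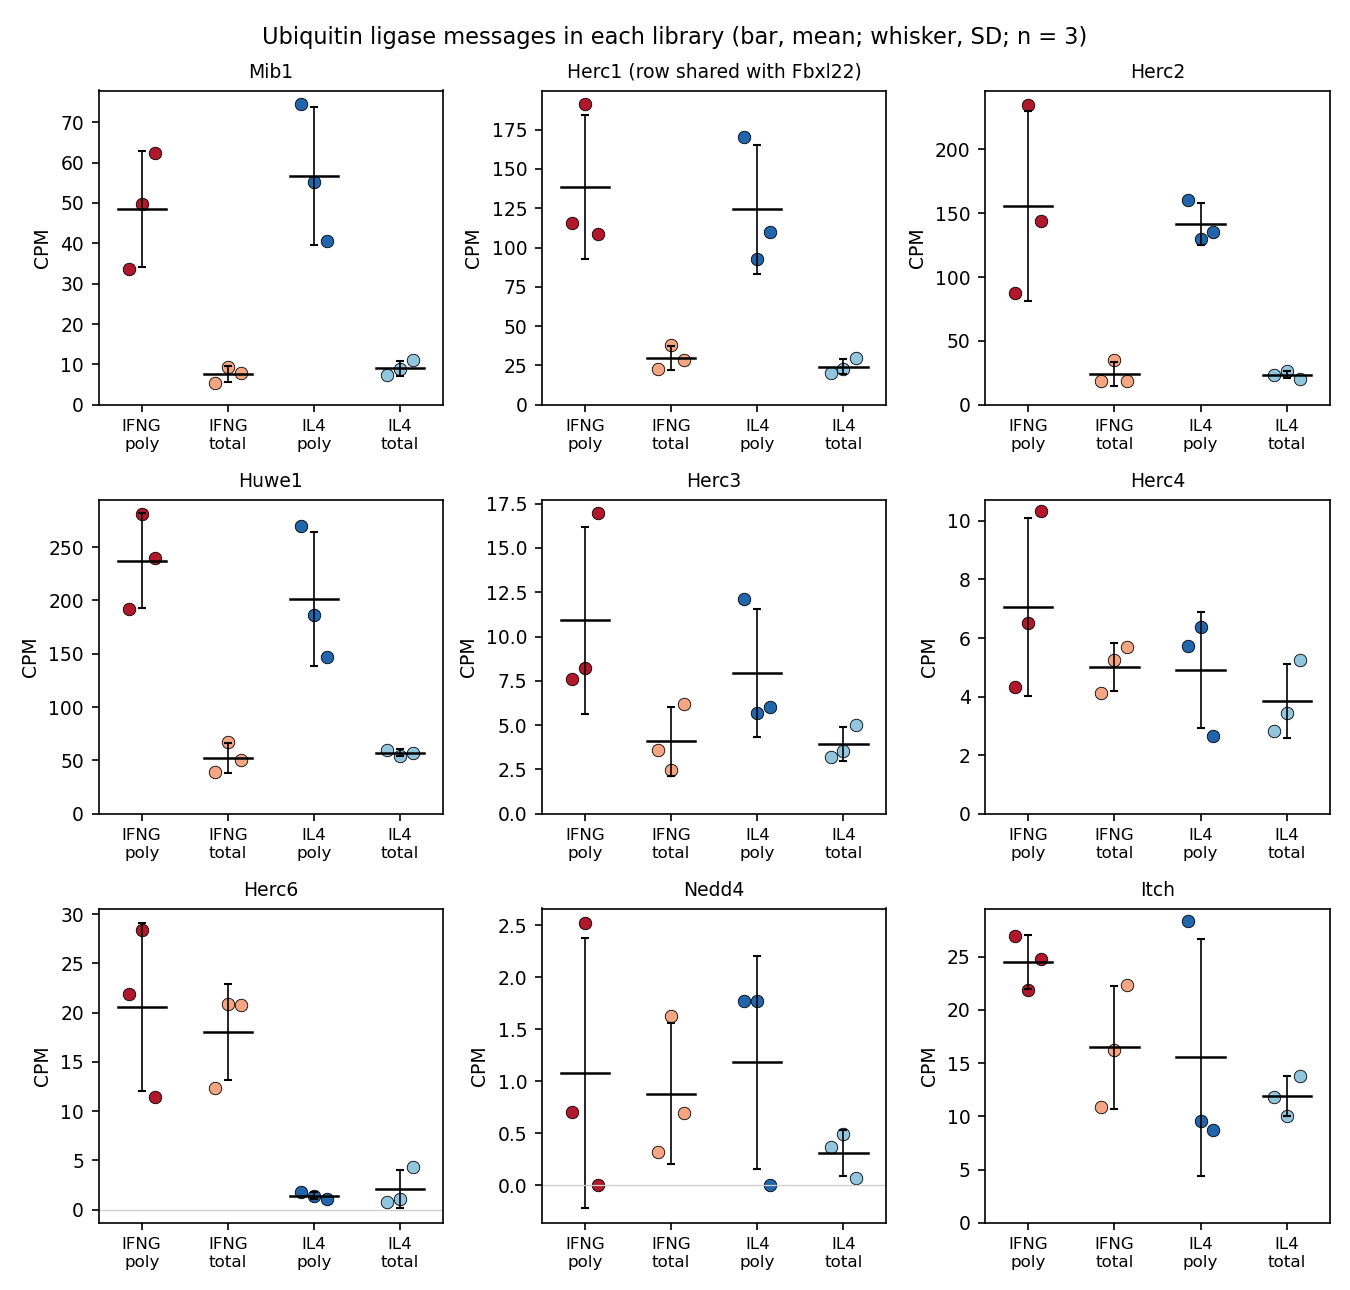
CPM (y axis, linear) of each of the 9 ligases in the 12 libraries, by group (x axis); points are libraries, bars group means and whiskers SD, n = 3. For Mib1, Herc1, Herc2, Huwe1 and Herc3 every polysome library lies above every total library of its polarization, and Herc6 has points near 0 in the IL4 groups.

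Mib1 lies on chromosome 18 and encodes a ligase that ubiquitinates Notch ligands such as Dll1 and Jag1 so that they are taken up by the cell that displays them. It had 33.7, 49.6 and 62.4 CPM in the IFNG polysome libraries, against 5.45, 9.42 and 7.77 CPM in IFNG total. With IL4 it had 74.4, 55.2 and 40.5 CPM on polysomes and 7.25, 8.83 and 11.0 CPM in total mRNA. In both polarizations the lowest polysome library was higher than the highest total library. The log2 difference was 2.68 with IFNG (95% interval 1.79 to 3.58), a fold of 6.43, and 2.65 with IL4 (95% interval 1.76 to 3.54), a fold of 6.29. Mib1 averaged 48.6 ± 14.4 CPM in IFNG polysome and 7.55 ± 1.99 in IFNG total, and 56.7 ± 17.0 in IL4 polysome and 9.03 ± 1.89 in IL4 total (SD, n = 3 each). From the highest mean, the order was IL4 polysome, IFNG polysome, IL4 total and IFNG total. The polysome groups overlapped each other, as did the total groups, so the steps within each pair were smaller than the spread.

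Herc2 (chromosome 7, 56050124 to 56231800, GRCm38) is a giant HERC that takes part in the DNA damage response with the ligase Rnf8. It had 87.8, 235.0 and 144 CPM in IFNG polysome libraries, against 18.3, 35.2 and 18.9 CPM in IFNG total. In IL4 polysome libraries it had 161, 130 and 135 CPM, against 23.5, 26.1 and 20.6 CPM in IL4 total. The groups did not overlap in either polarization, and the IFNG polysome libraries were more spread out than the IL4 ones, with SDs of 74.3 and 16.6 CPM around means of 156 and 142 CPM. The log2 difference was 2.69 with IFNG (95% interval 1.78 to 3.60, fold 6.45) and 2.60 with IL4 (95% interval 1.69 to 3.51, fold 6.06). Total mRNA averaged 24.2 ± 9.60 CPM with IFNG and 23.4 ± 2.78 CPM with IL4.

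Herc1 (chromosome 9, 66350412 to 66508775, GRCm38) is the other giant HERC, a protein of membranes of the secretory and endosomal system. Its joined row had 116, 191 and 109 CPM in IFNG polysome libraries, against 22.8, 37.8 and 28.8 CPM in IFNG total. The IL4 polysome libraries had 171, 92.8 and 109.7 CPM, and IL4 total had 20.2, 22.9 and 29.9 CPM. Again no polysome library fell among the total libraries of its polarization. The log2 difference was 2.22 with IFNG (95% interval 1.36 to 3.08, fold 4.66) and 2.35 with IL4 (95% interval 1.49 to 3.22, fold 5.11).

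Huwe1 (chromosome X, 151800785 to 151935417, GRCm38) is a giant HECT ligase whose known substrates include Mcl1, Myc and Trp53. It had 192, 281 and 239 CPM in IFNG polysome libraries, against 39.3, 67.0 and 50.3 CPM in IFNG total. IL4 polysome libraries had 270.2, 187 and 147 CPM, against 60.2, 53.7 and 57.2 CPM in IL4 total. The IL4 total libraries were the most even of any member and group, with a coefficient of variation of 5.75%. The log2 difference was 2.19 with IFNG (95% interval 1.35 to 3.02, fold 4.55) and 1.82 with IL4 (95% interval 0.99 to 2.64, fold 3.53). Ordered by group mean, both polysome groups (237 ± 45.0 CPM with IFNG, 201 ± 63.0 with IL4) stood above both total groups (52.2 ± 13.9 with IFNG, 57.0 ± 3.28 with IL4; SD, n = 3 each), and the groups overlapped within each of these pairs.

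These 4 genes were near the top of the whole table by fold. With IFNG, Herc2 ranked 38, Mib1 40, Herc1 92 and Huwe1 99 of 10421 features, counted from the highest log2 fold change. With IL4 the ranks were 47 for Mib1, 57 for Herc2, 101 for Herc1 and 432 for Huwe1, with the low-count Nedd4 at 274. In the edgeR fit over all features, 4 of 9 members passed an adjusted p of 0.05 in the higher direction in each polarization, where 8.93% of all features did so with IFNG and 13.2% with IL4 (25.9% and 29.1% in either direction). Since these values chose the members, nothing is read from that count. The median log2 fold change of the 9 members was 1.39 with IFNG and 1.82 with IL4, beside 0.00 and 0.06 over all features tested.

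The share of counts taken by Lars2 was higher on polysomes, as were these 4 genes. With Lars2 left out of the counts, the log2 differences with IFNG were 2.61 for Mib1, 2.13 for Herc1, 2.60 for Herc2 and 2.11 for Huwe1, and the median of all features was -0.08. With IL4 they were 2.46 for Mib1, 2.16 for Herc1, 2.40 for Herc2 and 1.62 for Huwe1, with a median of all features of -0.13. Over 20 other settings, among them leaving out each library in turn, Mib1 stayed between 2.51 and 2.96 with IFNG, and its lowest value with IL4 was 2.40. Pf4, which carried nearly all of the counts of the 3 megakaryocyte markers, moved the other way, and the summed level of these markers was 35.9 to 116 CPM in IFNG polysome and 336 to 766 CPM in IFNG total. With IL4 their sum was 155 to 328 CPM on polysomes and 527 to 1104 CPM in total mRNA, and its part in these results was not tested.

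**Figure D2:**
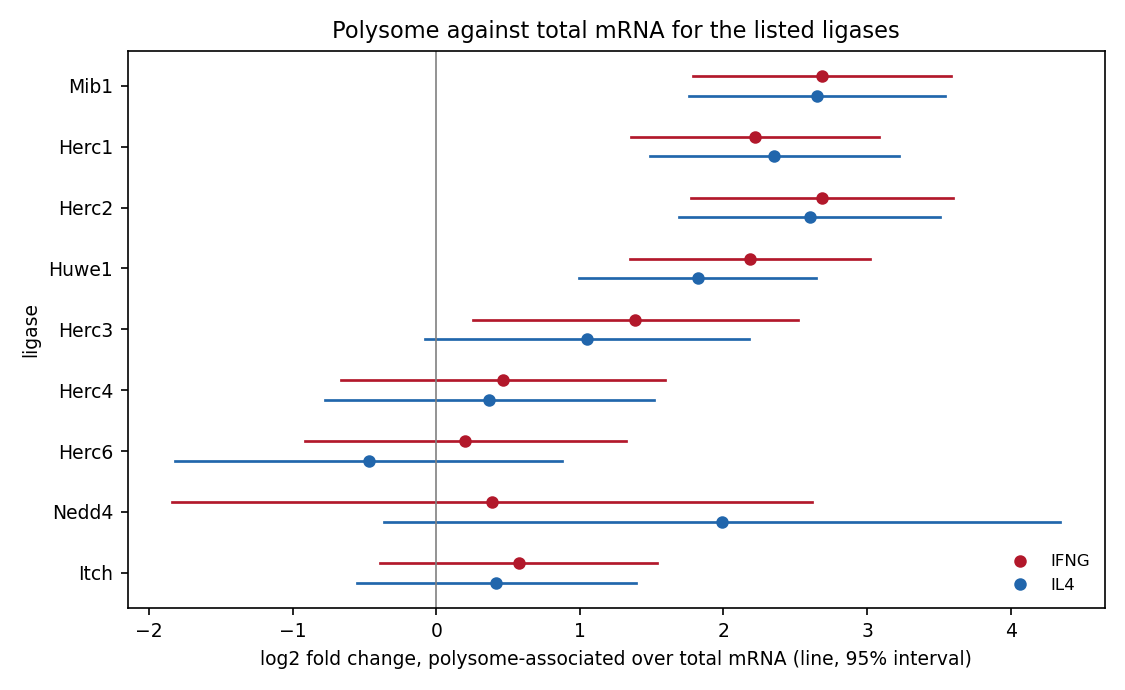
Log2 fold change of polysome-associated over total mRNA (x axis, lines are 95% intervals) for the 9 listed ligases (y axis), with IFNG and IL4 as separate points. Mib1, Herc2, Herc1 and Huwe1 lie at 1.82 to 2.69, and Nedd4, with the widest intervals, lies at 0.39 with IFNG and 1.99 with IL4.

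Herc3, a small HERC on chromosome 6 (58831455 to 58920398, GRCm38), was higher on polysomes by less than these 4 genes. It had 7.58, 8.20 and 17.0 CPM in IFNG polysome libraries, against 3.61, 2.44 and 6.22 CPM in IFNG total. In IL4 polysome libraries it had 12.1, 5.67 and 6.05 CPM, and in IL4 total 3.19, 3.56 and 5.00 CPM. The polysome libraries stood above the total libraries in both polarizations, though by little, and these values rest on few counts, 121 to 181 per group. Its 95% interval was 0.25 to 2.52 with IFNG and -0.08 to 2.17 with IL4. Herc3 contains Nap1l5, which has its own row, and whether the counting used strand is not given in the sources used here. Counting Herc3, 5 of 9 members were higher on polysomes without overlap in each polarization, where 17.4% of all features were so with IFNG, 23.4% with IL4 and 11.9% with both.

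Herc4 (chromosome 10, 63243751 to 63317881, GRCm38), another small HERC, is needed for normal sperm in mice. It had 4.32, 6.52 and 10.3 CPM in IFNG polysome libraries, against 4.12, 5.23 and 5.70 CPM in IFNG total. With IL4 it had 5.72, 6.37 and 2.65 CPM on polysomes and 2.83, 3.43 and 5.25 CPM in total mRNA. The groups overlapped, and the log2 differences of 0.46 and 0.37 had intervals that reached from -0.67 to 1.59 with IFNG and from -0.77 to 1.51 with IL4.

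Itch (chromosome 2, 155133481 to 155226855, GRCm38) is a HECT ligase of the Nedd4 family, with WW domains that bind its substrates. Mice that lack it develop inflammation. It had 27.0, 21.9 and 24.7 CPM in IFNG polysome libraries, against 10.8, 16.3 and 22.4 CPM in IFNG total. With IL4 it had 28.3, 9.56 and 8.70 CPM on polysomes and 11.8, 10.1 and 13.8 CPM in total mRNA. IL4 polysome replicate 1 stood above the other libraries of its group, whereas the IFNG polysome libraries lay close together. The log2 differences were 0.57 with IFNG (95% interval -0.39 to 1.54) and 0.42 with IL4 (95% interval -0.56 to 1.39). Without IL4 polysome replicate 1 the IL4 difference was -0.39.

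Nedd4 (chromosome 9, 72662331 to 72749851, GRCm38), the founding member of that family, was close to the detection limit. The sums over 3 libraries were 20 counts in IFNG polysome, 27 in IFNG total, 18 in IL4 polysome and 14 in IL4 total. IFNG polysome replicate 3 and IL4 polysome replicate 3 had 0 counts, which allows up to 1.11 and 1.135 CPM, and the highest library had 2.52 CPM. The log2 difference between polysome and total mRNA was 0.39 with IFNG (95% interval -1.84 to 2.62) and 1.99 with IL4 (95% interval -0.36 to 4.35). The value with IL4 is above that of Huwe1, but the libraries overlapped in both polarizations, and a difference was not detectable at this depth.

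Herc6 was the member whose level differed between the cytokines. This small HERC (chromosome 6, 57580992 to 57665136, GRCm38) is the main ligase for ISG15 in mice, a role held in humans by HERC5. It had 21.9, 28.4 and 11.5 CPM in IFNG polysome libraries, against 1.77, 1.42 and 1.13 CPM in IL4 polysome libraries. Herc6 had only 13, 4 and 3 counts in these IL4 polysome libraries. In total mRNA it had 12.4, 20.9 and 20.8 CPM with IFNG and 0.798, 1.10 and 4.30 CPM with IL4. Every IFNG library was higher than every IL4 library of its fraction, which held for 1 of 9 members, 13.4% of all features in total mRNA and 15.2% on polysomes, and within each polarization the polysome and total libraries overlapped.

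Against IL4, Herc6 rose with IFNG in both fractions. In total mRNA the log2 fold change was 3.11 (SE 0.59), a fold of 8.64 with a 95% interval of 3.70 to 20.1, and an adjusted p of 0.000821 in edgeR's quasi-likelihood test. On polysomes it was 3.78 (SE 0.66), a fold of 13.8 with a 95% interval of 5.34 to 35.5, and an adjusted p of 0.000354. The rule for the members did not use this comparison, although earlier results of these data were known when they were chosen. IL4 total replicate 3, with 68 counts of Herc6, stood above the 11 and 18 counts of the others of its group, and without it the log2 fold change in total mRNA was 4.22. Over 20 other settings the value was 2.73 to 4.22 in total mRNA and 3.49 to 4.13 on polysomes, with adjusted p-values of at most 0.0102 and 0.00372. The difference of group means of the authors' deposited log2 values was 3.46 in total mRNA and 3.62 on polysomes.

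Markers of other cell types also differed between the polarizations. Of the 5 dendritic cell markers 2 were tested, Xcr1 and Clec9a, and both were called higher with IFNG in both fractions. Zbtb46 and Siglech had 57 and 28 counts in all, and Flt3 had 0 counts in all libraries. The summed level of the 5 was 17.2 to 44.1 CPM in IFNG polysome and 0.681 to 1.42 CPM in IL4 polysome. In total mRNA it was 8.43 to 26.9 CPM with IFNG and 0.552 to 1.23 CPM with IL4. The 6 neutrophil markers, of which 3 were tested and Ly6g had 4 counts in all, summed to 33.7 to 41.7 CPM in IFNG polysome and 14.2 to 20.0 CPM in IL4 polysome. In total mRNA they summed to 45.2 to 55.4 CPM with IFNG and 12.8 to 56.6 CPM with IL4, and S100a9 was called higher with IFNG. Of the 6 T and NK cell markers, Cd3e, Cd8a, Ncr1 and Nkg7 had 0 counts. These 6 summed to 4.85 to 10.3 CPM in IFNG polysome and 0 to 5.67 CPM in IL4 polysome, and to 3.54 to 6.91 CPM in IFNG total and 1.14 to 1.89 CPM in IL4 total. Of the 5 stromal markers 2 were tested and 0 were called between polarizations. Their sum was 0.739 to 42.0 CPM in IFNG polysome and 0 to 9.27 CPM in IL4 polysome. In total mRNA it was 0.691 to 10.7 CPM with IFNG and 0.822 to 10.05 CPM with IL4. Pf4, the 1 megakaryocyte marker tested, was lower with IFNG on polysomes (log2 fold change -1.62, edgeR adjusted p 0.0276) and was at -0.60 in total mRNA, where it did not pass. Of the 8 macrophage markers, Fcgr1 was called higher with IFNG in total mRNA, and Fcgr1, Adgre1 and Mertk on polysomes, with medians over the 8 of 0.92 and 1.03. Their sum was 10230 to 16200 CPM in IFNG polysome and 7538 to 8467 CPM in IL4 polysome, and 12300 to 24290 CPM in IFNG total and 7832 to 13770 CPM in IL4 total. The part of these markers in the Herc6 difference was not tested, and in bulk samples more cells of a type and more RNA per cell cannot be told apart.

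**Figure D3:**
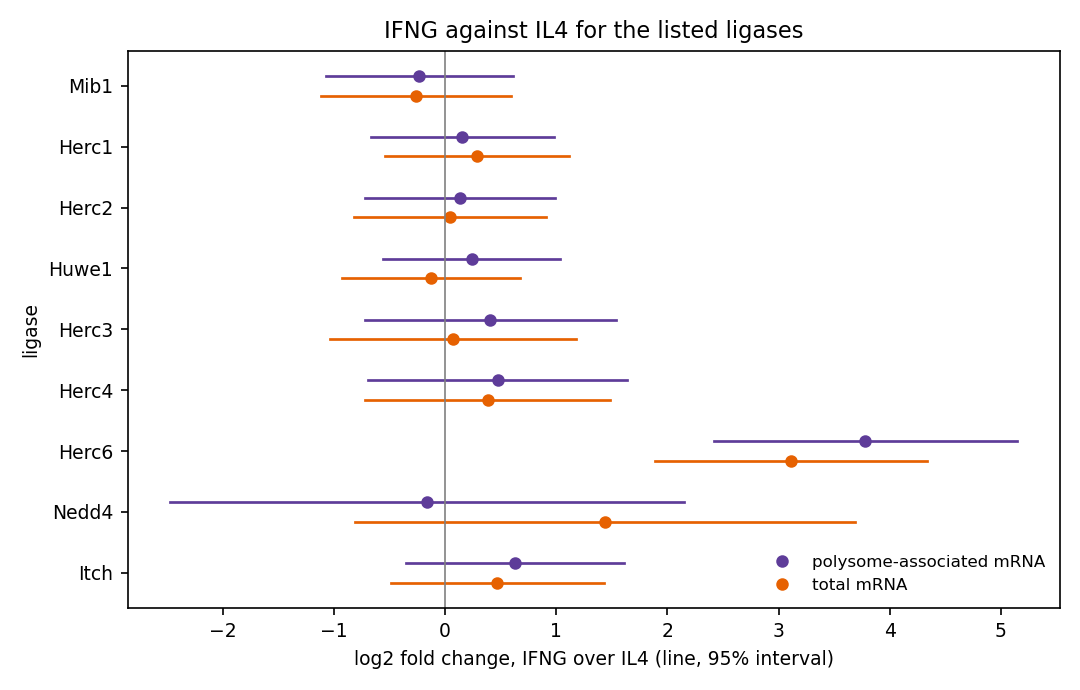
Log2 fold change of IFNG over IL4 (x axis, lines are 95% intervals) for the 9 ligases (y axis) in polysome-associated and total mRNA. Herc6 lies at 3.78 and 3.11, and the intervals of the other 8 genes include 0 in both fractions.

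The other 8 members did not pass the test between polarizations. Of the 9 members, 1 was called higher with IFNG in total mRNA, where 7.08% of all features were, and 1 on polysomes, where 7.54% were. None of the 9 was called lower, beside 3.93% of all features in total mRNA and 6.58% on polysomes (11.0% and 14.1% in either direction), and Herc6 was also the only member with an unadjusted p under 0.05 in either fraction. The log2 fold changes of the other 8 lay between -0.26 (Mib1) and 1.44 (Nedd4) in total mRNA and between -0.23 (Mib1) and 0.63 (Itch) on polysomes. The intervals bound what could have been missed. For Huwe1 the 95% interval was -0.93 to 0.67 in total mRNA and -0.56 to 1.04 on polysomes, and for Mib1 it was -1.12 to 0.59 and -1.07 to 0.61. For Herc2 it was -0.82 to 0.90 and -0.72 to 0.99, which is a fold of 0.568 to 1.87 in total mRNA and of 0.606 to 1.99 on polysomes. Itch had an interval of -0.49 to 1.43 in total mRNA and -0.35 to 1.61 on polysomes. That of Nedd4 reached from -0.81 to 3.69 in total mRNA.

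The change in polysome association between the polarizations, the difference of the polysome against total log2 fold changes, was -1.60 (Nedd4) to 0.67 (Herc6) among the members. For Mib1 it was 0.03, for Herc1 -0.14, for Herc2 0.09 and for Huwe1 0.37. It is given as a description, since the members were chosen from both of its parts. Over the whole table edgeR called 0 of 10421 features for this difference, with 176 at an unadjusted p under 0.05, and DESeq2 called 1. Thus 0% of features passed, the share against which the members' 0 of 9 stands.

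**Figure D4:**
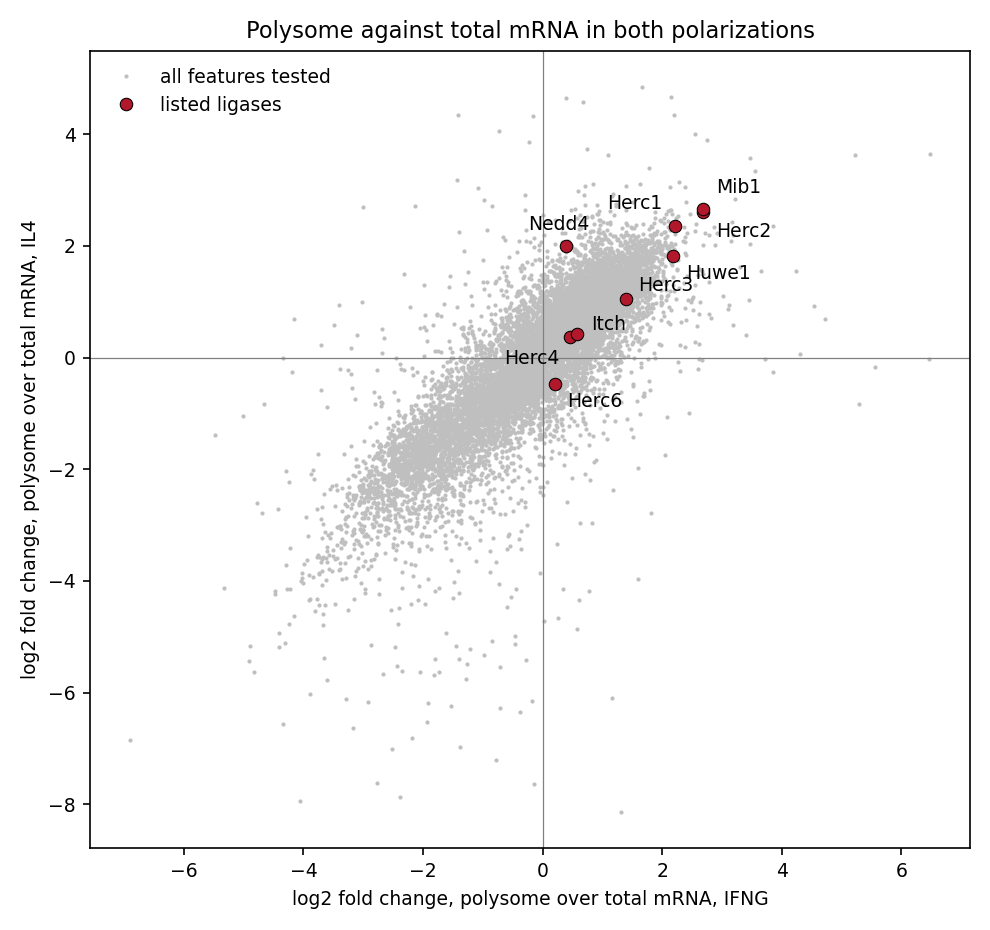
Log2 fold change of polysome-associated over total mRNA with IFNG (x axis) against IL4 (y axis), all features tested in grey and the 9 ligases marked. Mib1, Herc1, Herc2 and Huwe1 lie at 2.19 to 2.69 on the x axis and 1.82 to 2.65 on the y axis, and Herc6 lies near the origin at 0.20 and -0.47.

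Sequence upstream of the start was read for Herc6 beside Isg15, the modifier that Herc6 attaches, and for Huwe1. The windows hold the 250 bases before a transcript start listed in RefSeq (GRCm38.p6), which for Huwe1 lies inside the gene's span, downstream of its first base at 151800785. They run 5′ to 3′ on the gene's strand, and capitals mark motif matches. Herc6 and Isg15 are shown because both messages were higher with IFNG, and Huwe1 because its window held a match although the message was not called between polarizations.
Herc6 (chr6:57580742-57580991, plus strand): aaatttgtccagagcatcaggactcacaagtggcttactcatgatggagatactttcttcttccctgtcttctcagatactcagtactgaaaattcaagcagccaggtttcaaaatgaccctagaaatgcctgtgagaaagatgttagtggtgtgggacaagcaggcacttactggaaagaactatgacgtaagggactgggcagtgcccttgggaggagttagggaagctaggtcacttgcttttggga
Isg15 (chr4:156200819-156201068, minus strand): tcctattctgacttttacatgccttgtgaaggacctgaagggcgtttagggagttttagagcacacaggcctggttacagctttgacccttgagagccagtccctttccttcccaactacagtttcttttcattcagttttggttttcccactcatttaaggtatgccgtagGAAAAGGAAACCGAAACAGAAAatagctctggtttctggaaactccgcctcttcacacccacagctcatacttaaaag
Huwe1 (chrX:151803032-151803281, plus strand): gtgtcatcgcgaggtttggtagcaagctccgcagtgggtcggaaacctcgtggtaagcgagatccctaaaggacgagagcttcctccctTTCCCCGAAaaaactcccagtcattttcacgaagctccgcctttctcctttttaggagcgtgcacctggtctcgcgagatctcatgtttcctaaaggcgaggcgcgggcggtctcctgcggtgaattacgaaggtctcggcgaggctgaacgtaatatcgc

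The motifs searched on both strands were GAAANNGAAA, the core of the interferon-stimulated response element bound by STAT and IRF factors, and TTCNNNGAA, the gamma-activated site bound by STAT dimers. The first was found in 2.98% and the second in 7.02% of 32851 RefSeq windows of the same 250 bases. Of the members, 7 had a window (9 windows in all), and 0 of these 9 windows held the first motif, Herc6 included. The Isg15 window held 3 overlapping matches that begin at -78, -72 and -66 from the start. Of the genes of ISG15 conjugation, 4 had a window, and Isg15 was the only 1 with the first motif. The windows of Uba7 and Ube2l6, whose messages were also higher with IFNG, held neither motif, nor did that of Trim25. The second motif was found in 2 of the members' 9 windows, at -161 for Huwe1 and at -23 for Nedd4. Nedd4 has 2 windows, and the match is in the one that lies inside the gene (chr9:72693048-72693297), while the window just before the gene's first base holds neither motif. A match is a description of the letters, and a missing match says only that these letters are not in this window.

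Most of the genes of ISG15 conjugation were called between the polarizations. Of 5 listed, 4 rose with IFNG against IL4 in total mRNA and 4 on polysomes, and 0 fell, with a median log2 fold change of 2.80 and 2.22, beside 0.04 and -0.06 over all features. The shares of all features called higher were 7.08% in total mRNA and 7.54% on polysomes. Isg15 averaged 780 ± 269 CPM in IFNG total against 11.3 ± 4.53 CPM in IL4 total (SD, n = 3 each, log2 fold change 6.11, edgeR adjusted p 3.31e-07). Usp18, the protease that removes ISG15, averaged 320 ± 99.6 CPM in IFNG total against 9.02 ± 4.56 CPM in IL4 total (log2 fold change 5.15). Uba7, the E1 enzyme of ISG15, rose by 2.80 on the log2 scale in total mRNA, and Ube2l6, its E2 enzyme, by 2.69. On polysomes the log2 fold changes were 5.43 for Isg15, 4.43 for Usp18, 2.22 for Ube2l6 and 2.02 for Uba7. For Uba7 the polysome call did not hold when replicate 2 of IFNG polysome, or replicate 1 or 2 of IL4 polysome, was left out, with an adjusted p of up to 0.147. Trim25, a ligase that can also attach ISG15, did not pass, at 0.51 in total mRNA and 0.43 on polysomes.

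Ube2l6 was lower on polysomes than in total mRNA. It averaged 90.0 ± 60.5 CPM in IFNG polysome and 664 ± 310 CPM in IFNG total, a log2 fold change of -2.88 (edgeR adjusted p 0.000642). With IL4 it averaged 19.5 ± 1.76 CPM on polysomes and 103 ± 31.7 CPM in total mRNA, a log2 fold change of -2.40 (adjusted p 0.00258). It was the 1 of 5 genes of this list called between fractions, lower on polysomes in both polarizations, where 17.0% of all features were called lower with IFNG and 15.9% with IL4. Herc6 itself stood at 0.20 with IFNG and -0.47 with IL4.

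Among the other HECT ligases, 19 were listed, 18 had a row and 16 were tested, Hecw1 and Hecw2 having 4 and 15 counts in all. On polysomes against total mRNA, 3 of 16 were higher and 0 lower in each polarization, with medians of 0.82 with IFNG and 0.68 with IL4. Of all features, 8.93% were called higher and 17.0% lower with IFNG, and 13.2% and 15.9% with IL4. Over the other settings the count ran from 1 (without replicate 1 of IFNG total) to 6 with IFNG and from 1 (without replicate 2 of IL4 total) to 4 with IL4. Ube3c, 1 of the 3, was at log2 fold changes of 1.22 with IFNG and 1.35 with IL4, and missed the threshold without replicate 3 of IFNG polysome or replicate 1 of IFNG total (edgeR adjusted p up to 0.0907), and without replicate 1 of IL4 polysome or replicate 1 or 2 of IL4 total (up to 0.0616). The Nedd4 relatives Nedd4l, Smurf1, Smurf2, Wwp1 and Wwp2 did not pass in either polarization, with values from 0.06 for Wwp1 with IL4 to 1.21 for Nedd4l with IFNG.

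Between polarizations 1 of these 16 ligases was called higher in each fraction, beside 7.08% of all features in total mRNA and 7.54% on polysomes. Arel1, a ligase that acts against apoptosis, averaged 58.8 ± 13.2 CPM in IFNG polysome against 14.1 ± 7.10 CPM in IL4 polysome (log2 fold change 2.03, edgeR adjusted p 0.0038), and passed under all 20 settings. In total mRNA it averaged 35.9 ± 16.9 CPM with IFNG against 13.7 ± 2.03 CPM with IL4 (1.38, adjusted p 0.0447), and that call was lost in 9 of 20 settings, with an adjusted p of up to 0.383 (among them leaving out IFNG polysome replicate 2 or 3, IFNG total replicate 2, IL4 polysome replicate 2 or any IL4 total library).

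The enzymes upstream of the ligases were called in both directions between fractions. Of 10 E1 and E2 enzymes, 1 was higher and 3 lower on polysomes in each polarization, with medians of -1.02 with IFNG and -1.09 with IL4. The shares over all features were 8.93% higher and 17.0% lower with IFNG, and 13.2% and 15.9% with IL4. The count of calls ran from 1 (without replicate 2 of IFNG polysome or replicate 3 of IFNG total) to 6, and with IL4 from 1 (without replicate 2 of IL4 polysome) to 7, over the other settings. Ube2v1, a partner of Ube2n in building ubiquitin chains for signalling, averaged 93.5 ± 27.4 CPM in IFNG polysome and 311 ± 118 CPM in IFNG total (log2 fold change -1.73, edgeR adjusted p 0.00534). With IL4 it averaged 94.4 ± 17.8 CPM on polysomes and 270.1 ± 62.6 CPM in total mRNA (-1.52, adjusted p 0.0111, lost at 0.0503 without IL4 polysome replicate 3). Uba1, the main E1 enzyme, was the one called higher, at 1.12 and 1.26, and its call was lost in 13 of 20 settings with IFNG and 6 of 20 with IL4, among them leaving out Lars2. With IFNG these were also the settings without replicate 2 or 3 of IFNG polysome, replicate 1 or 2 of IL4 polysome or any total library (adjusted p up to 0.178), and with IL4 those without replicate 2 or 3 of IL4 polysome or any IL4 total library (up to 0.0957). None of these 10 was called between polarizations in total mRNA or on polysomes.

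The Notch pathway is where Mib1 acts, and 16 of its 21 listed genes were tested. Dll4 and Hey1 had 0 counts, and Dll1, Notch4 and Hes1 had 26, 19 and 35 counts in all. With IFNG, 4 of 16 were higher on polysomes than in total mRNA and 2 lower, beside 8.93% and 17.0% of all features. The receptor Notch2 averaged 503 ± 89.2 CPM in IFNG polysome against 151 ± 39.4 CPM in IFNG total (log2 fold change 1.73, edgeR adjusted p 0.00743). Psenen, a subunit of gamma-secretase, averaged 39.9 ± 26.6 CPM in IFNG polysome against 215 ± 58.3 CPM in IFNG total (-2.42, adjusted p 0.00289). With IL4 the counts were again 4 higher and 2 lower, beside 13.2% and 15.9% of all features, and Neurl3, a ligase related to neuralized, averaged 10.0 ± 5.06 CPM on polysomes against 49.1 ± 25.2 CPM in total mRNA (-2.27, adjusted p 0.00783). These 3 values passed under all 20 settings. In the other polarization each gene was called too, but not under every setting. Notch2 with IL4 was at 1.57 (adjusted p 0.0124), and was lost without replicate 1 of IL4 polysome or replicate 2 of IL4 total (up to 0.0908). Psenen with IL4 was at -1.96 (adjusted p 0.00969), and was lost at 0.0503 without replicate 3 of IL4 polysome. Neurl3 with IFNG was at -1.88 (adjusted p 0.0172), and was lost without replicate 2 or 3 of IFNG polysome or replicate 1 of IFNG total (up to 0.170). The list's counts ran from 2 (without replicate 2 of IFNG polysome or replicate 1 of IFNG total) to 10 with IFNG and from 2 (without replicate 2 of IL4 total) to 9 with IL4.

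Between polarizations, 3 of the 16 Notch genes were higher with IFNG in total mRNA and 5 on polysomes, and 0 were lower. Of all features, 7.08% were higher and 3.93% lower in total mRNA, and 7.54% and 6.58% on polysomes. Jag1, a ligand that Mib1 ubiquitinates, averaged 133 ± 58.5 CPM in IFNG polysome against 28.6 ± 18.8 CPM in IL4 polysome (log2 fold change 2.19, edgeR adjusted p 0.0042), and passed under all 20 settings. In total mRNA it averaged 58.4 ± 18.8 CPM with IFNG against 16.8 ± 7.11 CPM with IL4 (1.80, adjusted p 0.0169). That call was lost without IFNG total replicate 1, IL4 total replicate 2 or IL4 total replicate 3 (adjusted p up to 0.105), and the list's count ran from 0 (without replicate 1 of IFNG total or replicate 3 of IL4 total) to 4 in total mRNA and from 1 (without replicate 3 of IL4 polysome) to 7 on polysomes. Mib1 was at -0.26 in total mRNA and -0.23 on polysomes in the same comparisons.

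Adaptors, substrates and partners were compared in the same way, against 7.08% of all features called higher with IFNG in total mRNA and 7.54% on polysomes. Of 11 adaptors and regulators of the Nedd4 family, 1 was higher in total mRNA, 2 were higher on polysomes and 0 were lower. Tnfaip3 (A20), which works with Itch to limit NF-kB signalling, rose with IFNG by 2.36 on the log2 scale in total mRNA (edgeR adjusted p 0.00104) and by 2.86 on polysomes (adjusted p 0.000262). Arrdc4, an arrestin-like adaptor, was also called higher on polysomes, at 2.25 (adjusted p 0.00319). Both passed under all 20 settings. Of 10 known substrates of Huwe1 and Itch, 1 was higher in total mRNA (2 called with the replicate block), and 1 was higher and 1 lower on polysomes, where 6.58% of all features were lower. Cflar (c-FLIP), which Itch targets, rose by 2.65 in total mRNA and 2.62 on polysomes and passed under all settings. Cdc6, a Huwe1 substrate, was lower with IFNG on polysomes at -1.62 (adjusted p 0.0328), a call lost with Lars2 left out, without replicate 2 of IFNG polysome and without replicate 1 or 3 of IL4 polysome (up to 0.153). The Huwe1 substrates Mcl1, Myc and Trp53 were not called between polarizations. Of 5 partners of Herc2, 0 were called between polarizations, and 1 was higher on polysomes than in total mRNA in each polarization. Among all features, 8.93% were higher and 17.0% lower on polysomes with IFNG, and 13.2% and 15.9% with IL4. In that comparison, 0 adaptors were higher and 1 lower with IFNG, and 1 was higher and 2 lower with IL4. Substrates had 0 higher and 2 lower with IFNG, and 0 called with IL4. Over the other settings, calls ran from 0 to 2 (IFNG) and 0 to 4 (IL4) for adaptors. For substrates they ran from 0 to 4 and 0 to 2. The partner was Usp33, a deubiquitinase. It was at 1.97 with IL4 (adjusted p 0.00286), which passed under all 20 settings, and at 1.38 with IFNG (adjusted p 0.0178), which was lost without replicate 1 of IFNG polysome or replicate 1 of IFNG total and with only the compared groups fitted (up to 0.0755).

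The features whose levels ran most like each member over the 12 libraries were found by Pearson's r of log2 CPM among features of at least 10 CPM on average. For Mib1 they were Rprd2 (r = 0.986), Atp11a and Zfp106, and for Huwe1 they were Vps13d (r = 0.991), Rreb1 and Atp11a. For Herc2 they were Arid1a, Trrap and Pogz, at 0.985 to 0.979, and for Herc1 Dhx8, Pogz and Sptan1, at 0.982 to 0.977. Herc6 ran with Serpinb9 (r = 0.984), Sco1 and Gbp9, a guanylate-binding protein of the interferon response. Itch ran with Dusp11 (r = 0.981), Taok1 and Cab39, and the best values for the low genes Herc3, Herc4 and Nedd4 were 0.9425, 0.866 and 0.920. Libraries share depth and fraction, so r is a description of these 12 libraries.

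Gene length on the genome, introns included, was read from RefSeq, and the length of the messages was not. Mib1, Huwe1, Herc1 and Herc2 span 92954, 134633, 158364 and 181677 bases, and the other 5 members span 74131 to 93375 bases. Of the 4 genes with the highest log2 fold changes with IFNG, 3 are the longest of the 9, and Mib1 lies within the range of the others. With IL4 Nedd4, which spans 87521 bases, stood above Huwe1.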

How the data were processed

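Per the file headers, each table gives whole-number counts of reads by gene symbol, as deposited by the authors with no normalization, and a column of log2 values that the authors made from the counts by TMM scaling, given for 11006 of 19549 features. The genome build was mm10 and the tools named are HISAT, HISAT2 and limma, per the submitters' processing notes. Which program counted reads, on which annotation and whether by strand, is not given in the sources used here, so reads of overlapping genes and antisense partners cannot be told apart, and 830 features join several symbols. SmartSeq2 libraries were used, per the labels.

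Tests were run on the counts with edgeR 4.0.16 under R 4.3.3, using filterByExpr with a minimum count of 10, TMM scaling and 1 robust quasi-likelihood fit of 4 groups of 3 libraries without covariates. Benjamini-Hochberg adjustment ran over the 10421 features tested, with a threshold of 0.05. The 5 comparisons were polysome against total mRNA in each polarization, IFNG against IL4 in each fraction, and the difference between them. Intervals are 95% intervals of the fit, and the limit for 0 counts is 3 counts, for counting error only. Alternatives were edgeR with RLE factors, DESeq2 1.42.0, voom of limma 3.58.1, other filters, Lars2 left out, a replicate block, only the groups compared, and each library left out. The test was tried on simulated data, drawn with no tie between libraries, and nothing here rests on that trial. No replicate pair of a group agreed within sampling noise.

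The members and the gene lists were chosen with earlier results of these data known. From each list up to 4 called features, by mean CPM, could be named, or up to 2 where none was called, and the 3 most alike features for each member; some single results among the other HECT ligases are not reported here. Same-numbered libraries of a fraction deviated together between IFNG and IL4. Their r was 0.517, 0.153 and 0.745 in total mRNA, and 0.251, 0.153 and 0.352 on polysomes. Some differently numbered pairs had a higher r than the replicate 2 pair. In total mRNA, IFNG replicate 2 with IL4 replicate 1 had 0.3955, and on polysomes IFNG replicate 1 with IL4 replicate 2 had 0.229. Pairing by number within a fraction was thus not settled for replicate 2. Positions and promoter windows are from RefSeq GRCm38.p6, the assembly that mm10 stands for.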

Additional observations from a re-analysis of the deposited data

How the results depend on the processing

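Under all 20 other settings, Mib1, Herc1, Herc2 and Huwe1 kept their direction between polysome-associated and total mRNA in both polarizations, and Herc6 remained the 1 member called between IFNG and IL4 in each fraction. With the replicate block, Herc6 was at 3.20 (edgeR adjusted p 0.000516) in total mRNA and 3.76 (adjusted p 0.000269) on polysomes, and no member's call between IFNG and IL4 changed.

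Each preparation was divided between the fractions, but the labels do not say that equal numbers mark the same preparation, and same-numbered polysome and total libraries had r of -0.07 to 0.43, so pairing between fractions was not settled. The replicate block gave 3113 calls with IFNG and 3550 with IL4 in place of 2700 and 3037, and 12 of 12 libraries correlated best with their own number. With the block, the calls with IFNG were 4 in place of 2 among substrates and 2 in place of 1 among partners of Herc2. The median of the members with IFNG was 2.35 with a filter at a mean of 10 CPM, which left 6 members, and 0.98 to 1.88 with each library left out. Leaving out libraries gave 1232 to 3112 called features for that comparison, 1562 to 3463 with IL4 and 854 to 1774 for IFNG against IL4 on polysomes. The lowest of these counts came without IFNG total replicate 1, without IL4 total replicate 2 and without IL4 polysome replicate 3. With Lars2 left out, the calls with IL4 split into 954 higher and 2028 lower, in place of 1375 and 1662, and the median of all features was -0.13 in place of 0.06. With a filter at 10 CPM the calls with IFNG split into 1267 and 1506, in place of 931 and 1769, and with only the compared groups into 483 and 1610. For the difference in polysome association, DESeq2 called 1 feature and the fit without a filter 5, and the fit of only the compared groups was not run.

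Members that were not called changed sign in places. Between IFNG and IL4 in total mRNA, Herc2 was at -0.11 with the 10 CPM filter, -0.012 with the replicate block and -0.028 with limma-voom, and Herc3 was at -0.0038 with the block. With each library left out, Herc2 ran from -0.39 to 0.16 and Herc3 from -0.40 to 0.28 in total mRNA, and on polysomes Herc1 ran from -0.15 to 0.46, Herc2 from -0.29 to 0.42, Mib1 from -0.42 to 0.020 and Nedd4 from -1.39 to 0.38. Between polysome-associated and total mRNA, with each library left out, Nedd4 ran from -0.85 to 1.22 with IFNG. Herc6 there ran from -0.09 to 0.52 with IFNG and from -0.85 to 0.64 with IL4, and Itch with IL4 from -0.39 to 0.70. The cause of these changes was not tested. In every comparison Nedd4, Herc4 and Herc3 rest on few counts, 14 to 181 a group. Herc6 rests on few counts in the IL4 groups, 20 on polysomes and 97 in total mRNA. Signs also changed in members with more counts.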
